A study of Mus musculus with 6 samples.

Results

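The primitive endoderm factors examined here were 8 genes, *Gata6*, *Gata4*, *Sox17*, *Sox7*, *Pdgfra*, *Dab2*, *Hnf4a* and *Foxa2*. They were found by matching the Ensembl identifiers of the expression table to gene symbols, and all 8 were present among its 55774 entries. RNA sequencing had been done on 6 libraries, each made from 10 blastocysts. In 3 libraries the embryos had been cultured with oviductal extracellular vesicles of women with endometriosis (oEV-EMT), and in 3 with vesicles of women without it (oEV-ctrl). The sample labels give uterine fibroids as the condition of the control donors, whereas the methods of the study give another indication for surgery. All embryos were wild-type, came from ICR mice and were grown in CZB medium, so that both groups had received human vesicles and no vesicle-free embryos were in the comparison. A library was a pool of whole blastocysts, in which fewer cells of a lineage and less RNA per cell cannot be told apart. The sources do not say whether the 3 pools of a group came from separate cultures, and p-values then measure only the spread between these pools.

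The primitive endoderm is the lineage of the inner cell mass that lines the blastocyst cavity and later forms the endoderm of the yolk sac. Its precursors separate from the epiblast when FGF4, secreted by epiblast-fated cells, acts through FGF receptors and ERK and the transcription factor GATA6 prevails over NANOG. The factors are switched on one after another, with GATA6 and the receptor PDGFRA early, SOX17 and GATA4 later and SOX7 last. DAB2, an endocytic adaptor, serves in uptake and in the surface position of the endoderm cells, and HNF4A and FOXA2 belong to the visceral endoderm that forms around implantation.

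Promoter sequence of *Dab2* and *Pdgfra* is shown because GATA factors are known to act on both genes in the endoderm lineage and both were followed in every library below. Each sequence is a stretch of 249 bases that ends just before a RefSeq start site on GRCm38.p6, written from 5′ to 3′ on the strand of the gene. Capitals mark the GATA motif, searched on both strands as AGATAA or AGATAG and as TGATAA or TGATAG. The *Dab2* stretch lies at chr15:6299539-6299787 on the plus strand and the *Pdgfra* stretch at chr5:75152001-75152249 on the plus strand. The other RefSeq window of *Dab2*, at chr15:6386498-6386746, held 0 matches and is not shown.
Dab2: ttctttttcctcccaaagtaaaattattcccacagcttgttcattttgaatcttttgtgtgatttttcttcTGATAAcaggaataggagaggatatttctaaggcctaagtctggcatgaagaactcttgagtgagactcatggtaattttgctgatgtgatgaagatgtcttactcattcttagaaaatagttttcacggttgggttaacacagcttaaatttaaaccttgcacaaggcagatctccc
Pdgfra: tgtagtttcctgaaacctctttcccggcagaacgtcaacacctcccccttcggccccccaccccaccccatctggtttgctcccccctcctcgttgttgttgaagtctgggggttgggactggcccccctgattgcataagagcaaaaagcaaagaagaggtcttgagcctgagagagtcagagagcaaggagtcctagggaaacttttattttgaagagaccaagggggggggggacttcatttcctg
The *Dab2* stretch held 1 match, TGATAA, whose first base lies at position -178 from the start site, and the *Pdgfra* stretch held 0. RefSeq windows were at hand for 4 of the factors, 8 windows in all, and 3 of them held a match, 1 of 2 windows of *Dab2*, 1 of 2 of *Hnf4a* and 1 of 3 of *Foxa2*. Among the 32851 windows of all genes, 26.5% held at least 1 match. A match describes the letters of the window and says nothing of binding.

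Levels were in FPKM, a read measure corrected for transcript length and library size, which lets genes be compared with each other. The pools are of whole blastocysts, so no level tells which lineage the RNA came from. *Dab2* stood far above the other factors, with a mean of 171 FPKM over the 6 libraries and a range from 104 to 215. *Gata6* followed with a mean of 20.2 FPKM, and its lowest library, at 15.7, was above the highest of *Gata4*, at 11.3. The mean level was 6.63 FPKM for *Gata4*, 3.98 for *Pdgfra*, 3.53 for *Sox7*, 2.08 for *Sox17*, 0.929 for *Foxa2* and 0.334 for *Hnf4a*. The levels of neighbours in this order overlapped from *Gata4* downwards. Compared within a library, *Pdgfra* was above *Sox7* in 4 of the 6 libraries, *Gata4* above *Pdgfra* in 5, and *Sox7* above *Sox17* in 6. In mean level, each of the 6 factors of the early endoderm was above both factors of the visceral endoderm.

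**Figure D1:**
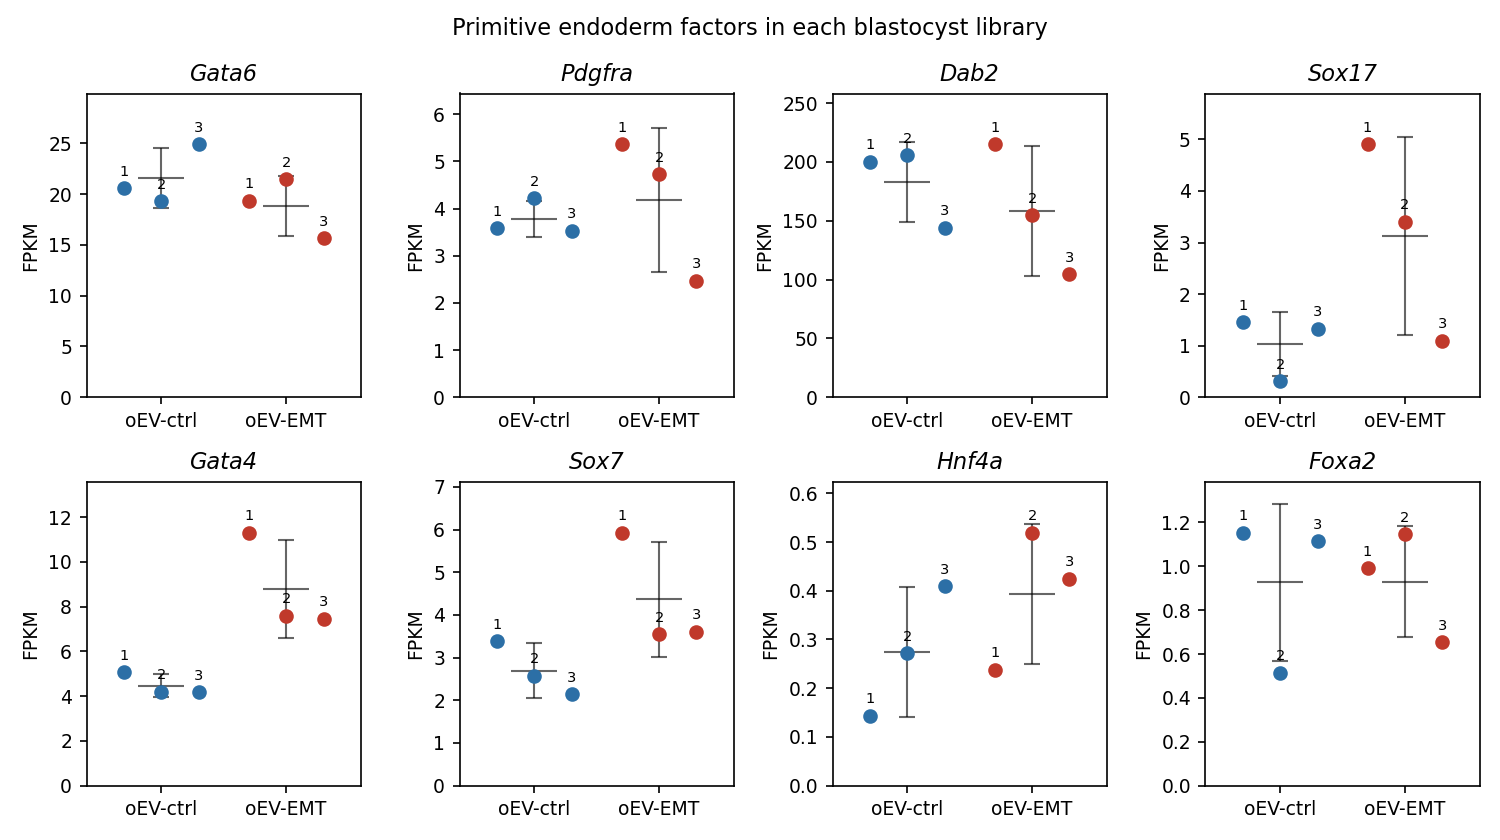
FPKM of the 8 primitive endoderm factors in each library (y axis, 1 scale per gene, starting at 0). Points are libraries, numbered by replicate, in blue for oEV-ctrl and red for oEV-EMT, and black bars give the mean ± SD (n = 3 libraries). The groups are apart in *Gata4* and, narrowly, in *Sox7*.

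The total of the deposited FPKM lay between 1293175 and 1551567 per library, and 1 unannotated entry, new_gene48, took from 15.3% to 31.5% of it, most in oEV-ctrl 1. Read totals are not part of FPKM. The value that recurred most often among low genes was taken as that of 1 read pair, and by it 1 FPKM in a transcript of 1 kilobase stood for 36.8, 21.5 and 25.2 read pairs in the oEV-EMT libraries and for 17.8, 24.3 and 32.4 in the oEV-ctrl libraries. With the longest annotated coding transcript, the level of *Hnf4a* rested on about 11.1 to 57.8 read pairs per library, that of *Foxa2* on 26.6 to 77.6 and that of *Sox17* on 24.4 to 585. These numbers are rough, since only 25% to 34.2% of the low values lay within 0.025 read pairs of a multiple of 0.5, where evenly spread values would give 10%. oEV-EMT 1 was the deepest library by this measure. It held the highest value of 5 of the 8 factors, and oEV-EMT 3 the lowest of 3. How often this holds among all tested genes was not counted, and a link with depth was not tested. Of 17 markers of cumulus cells and oviduct epithelium, 7 were listed at 0 in every library, among them *Fshr*, *Amh*, *Cyp19a1* and *Foxj1*, and 14 stayed below 1 FPKM. *Epcam*, which blastocysts also express, was at 301 to 559 FPKM. In 3 tested genes of this list, *Amhr2*, *Cyp11a1* and *Epcam*, the log2 fold changes were 0.63, -0.44 and 0.24.

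The question of the comparison was whether vesicles from the tubes of women with endometriosis altered the transcriptome of the blastocyst. Genes that reached 1 FPKM in 3 or more libraries were tested with limma, a linear model fitted to log2(FPKM + 1) across all genes, and 7 of the 8 factors were among the 11924 tested genes. *Hnf4a* was not. The thresholds of a call were 0.05 for the adjusted p-value and 1 for the log2 fold change in either direction. By limma 0% of all tested genes and 0 of the 7 factors passed both, whereas 1831 genes had an unadjusted p-value within 0.05. All tested genes together had a median log2 fold change of 0.17, so that a gene lying at 0 was below most others. Log2 fold changes are oEV-EMT minus oEV-ctrl on the log2(FPKM + 1) scale, which understates the change of low genes.
Before adjustment, the p-values of *Gata4* and *Sox17* were within 0.05, both higher in oEV-EMT, that is 2 of 7 against 12.8% of all tested genes, and 0 of 7 were lower against 2.55%. Complete separation of the groups with oEV-EMT on top was found for *Gata4* and *Sox7*, 2 of 7 against 18.1% of all tested genes, and the opposite for 0 of 7 against 4.34%. The log2 fold change was above 0 for 5 of the 7 factors against 70.1% of all tested genes. The median of the 7 log2 fold changes was 0.08, which is -0.10 relative to that of all tested genes, and it ran from -0.083 to 0.34 over the alternatives. Between them the factors ran from -0.26 for *Dab2* to 0.95 for *Sox17*, in the order *Sox17*, *Gata4*, *Sox7*, *Pdgfra*, *Foxa2*, *Gata6* and *Dab2* from the top.

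**Figure D2:**
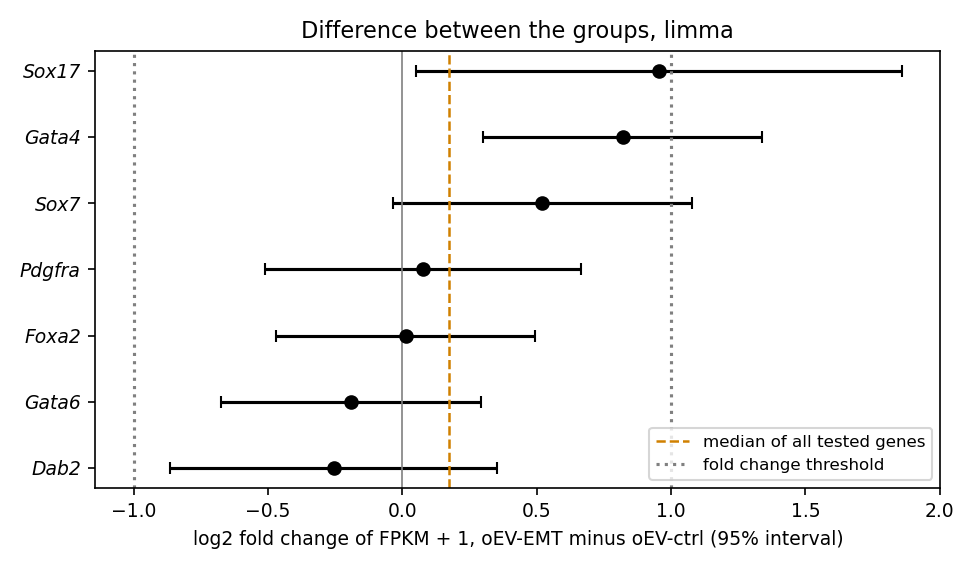
Log2 fold change of the 7 tested factors (x axis, oEV-EMT minus oEV-ctrl, log2 of FPKM + 1) with the 95% interval from limma. The dashed line is the median of all tested genes at 0.17 and dotted lines mark the fold change threshold of 1. The interval lies above 0 for *Gata4* and *Sox17* and reaches past 1 for these and *Sox7*.

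In what follows, the values of a group are listed in the order of replicates 1, 2 and 3. *Gata6* encodes the zinc finger factor that starts the primitive endoderm programme. In GRCm38, the build of all gene positions given here, it spans 11052064 to 11085635 of chromosome 18, plus strand. *Gata6* measured 19.3, 21.5 and 15.7 FPKM under oEV-EMT and 20.6, 19.3 and 24.9 under oEV-ctrl. The groups overlapped, and the 6 values lay within a range of 1.59 times, the narrowest of the 8 factors. The means were 18.8 ± 2.93 and 21.6 ± 2.96 (SD, n = 3 each). This was a log2 fold change of -0.19 with a 95% interval from -0.67 to 0.29 (Benjamini-Hochberg adjusted p = 0.703, limma), an interval that leaves room for a small change either way. Relative to the median of all genes it was -0.36. After median-of-ratios or upper quartile scaling, which bring the median of all genes to 0.01 and -0.05, the *Gata6* values of oEV-EMT were all under those of oEV-ctrl. At these settings 20.1% and 20% of all tested genes were without overlap, in either direction. The share with oEV-EMT below was not counted separately there, and in the values as deposited it was 4.34%. An RNA on the opposite strand, 1010001N08Rik, shares 93 exonic bases with *Gata6*. It measured 6.26, 8.88 and 8.87 FPKM in oEV-EMT and 4.36, 6.15 and 6.13 in oEV-ctrl. The groups were narrowly apart, and 18.1% of all tested genes were apart with oEV-EMT on top. Whether reads were assigned by strand is not given in the sources used here.

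*Pdgfra*, on chromosome 5 from 75152292 to 75198215 on the plus strand, encodes the receptor for PDGF that marks endoderm precursors. *Pdgfra* measured 5.37, 4.73 and 2.47 FPKM under oEV-EMT against 3.58, 4.21 and 3.53 in oEV-ctrl. The oEV-EMT libraries enclosed the oEV-ctrl libraries, with oEV-EMT 1 the highest and oEV-EMT 3 the lowest of all. The log2 fold change of *Pdgfra* was 0.08, with a 95% interval from -0.51 to 0.66 (adjusted p = 0.910, limma). Its sign depended on the libraries and on the scaling, and without oEV-EMT 3 the log2 fold change was 0.34. Of the RNAs on the opposite strand that share exonic bases with *Pdgfra*, Gm42802 was listed at 0 in every library and Gm42803 reached 0.252 FPKM. *Pdgfa*, which encodes a ligand of this receptor, was at 33.8 to 41.1 FPKM in oEV-EMT and 34.0 to 48.6 in oEV-ctrl.

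*Dab2* lies on chromosome 15 from 6299788 to 6440712 on the plus strand. *Dab2* measured 215, 155 and 104 FPKM under oEV-EMT and 200, 206 and 144 under oEV-ctrl. The groups overlapped, and the values of oEV-EMT spread over the whole range of the gene. The means were 158 ± 55.4 and 183 ± 34.0 (SD, n = 3 each), and the log2 fold change was -0.26 with a 95% interval from -0.86 to 0.35 (adjusted p = 0.684, limma). Without oEV-EMT 3 it was 0.011, and without oEV-EMT 1 it was -0.51. *Lrp2* encodes megalin, an endocytic receptor for which DAB2 is an adaptor. It was at 8.67 to 14.0 FPKM in oEV-EMT and 10.1 to 15.0 in oEV-ctrl, which overlapped as *Dab2* did.

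*Sox17* encodes an HMG box factor of the endoderm and lies on the minus strand of chromosome 1 from 4490931 to 4497354. *Sox17* measured 4.91, 3.40 and 1.09 FPKM under oEV-EMT and 1.45, 0.310 and 1.32 under oEV-ctrl. It was the most variable factor, with a range of 15.8 times between oEV-EMT 1 and oEV-ctrl 2, and oEV-EMT 3 lay below 2 of the oEV-ctrl libraries. The means were 3.13 ± 1.92 and 1.03 ± 0.626 (SD, n = 3 each). The log2 fold change was 0.95 with a 95% interval from 0.05 to 1.86, and the adjusted p-value was 0.302 (limma). The size rested on single libraries, with 0.63 without oEV-EMT 1, 0.67 without oEV-ctrl 2 and 1.38 without oEV-EMT 3. An annotated RNA on the opposite strand, Gm37587, holds 15.0% of the 50-base stretches of the *Sox17* transcripts, but it was listed at 0 in 4 libraries and at 0.0280 FPKM at most.

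*Gata4* encodes the second GATA factor of the lineage and lies on the minus strand of chromosome 14 from 63198922 to 63271692. *Gata4* measured 11.3, 7.60 and 7.46 FPKM under oEV-EMT and 5.07, 4.19 and 4.17 under oEV-ctrl. Every oEV-EMT library was higher than every oEV-ctrl library (p = 0.1 in an exact permutation test, two-sided, which cannot go lower with 3 libraries against 3). The means were 8.79 ± 2.19 and 4.48 ± 0.517 (SD, n = 3 each), a ratio of 1.96. On the log2 scale the fold change was 0.82 with a 95% interval from 0.30 to 1.34, and the adjusted p-value of 0.174 (limma) did not pass the threshold. Without oEV-EMT 1 the log2 fold change of *Gata4* was 0.64, and the groups were apart under every scaling tried. By 50-base stretches, *Gata4* shares sequence with 0 other genes.

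*Sox7*, on chromosome 14 from 63943673 to 63950732 on the plus strand, encodes the HMG box factor that appears last in the sequence. *Sox7* measured 5.93, 3.55 and 3.61 FPKM under oEV-EMT and 3.39, 2.57 and 2.14 under oEV-ctrl. The groups were apart (p = 0.1, exact permutation test), but the gap between them was only 0.167 FPKM. The log2 fold change was 0.52 with a 95% interval from -0.04 to 1.08 (adjusted p = 0.354, limma), and 0.32 without oEV-EMT 1. The groups overlapped in *Sox7* when libraries were scaled by median-of-ratios, by the upper quartile or by their total without new_gene48.

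*Hnf4a* encodes a nuclear receptor of the visceral endoderm and lies on chromosome 2 from 163506808 to 163572910 on the plus strand. It measured 0.238, 0.519 and 0.425 FPKM in oEV-EMT and 0.144, 0.271 and 0.410 in oEV-ctrl, below 1 FPKM in every library and with the groups overlapping. Tested without a filter on low values, *Hnf4a* had a log2 fold change of 0.13 and an adjusted p-value of 0.734 (limma). *Foxa2* encodes a forkhead factor and lies on the minus strand of chromosome 2 from 148042877 to 148046969. *Foxa2* measured 0.992, 1.15 and 0.655 FPKM in oEV-EMT and 1.15, 0.514 and 1.12 in oEV-ctrl, and 3 of the 6 values reached 1 FPKM. Its log2 fold change was 0.01 with a 95% interval from -0.47 to 0.49 (adjusted p = 0.985, limma). At these levels, differences within the spread of the libraries could not be detected.

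Ratios of 2 genes within a library do not depend on the scaling between libraries. They were chosen after the values above were seen. Their log2 differences are of plain FPKM, without the added 1, and are not on the scale of the log2 fold changes. The ratio of *Gata4* to *Gata6* was 0.585, 0.354 and 0.476 under oEV-EMT and 0.247, 0.217 and 0.167 under oEV-ctrl. The ratios did not overlap, and the mean log2 ratio was higher by 1.15 in oEV-EMT (exact permutation test, p = 0.1). Any ratio without overlap gives this p-value here, so it adds nothing to the lack of overlap. Such a separation was common, since 30.5% of all tested genes had a higher ratio to *Gata6* in every oEV-EMT library and 1.26% a lower one. For *Sox7* to *Gata6* the ratio was 0.307, 0.166 and 0.230 against 0.165, 0.133 and 0.0858, which did not overlap either, by a margin seen only in the third decimal. The ratios of *Sox17*, *Pdgfra* and *Dab2* to *Gata6* overlapped between the groups, with log2 differences of 1.85, 0.28 and -0.06. The level of *Dab2* was 5.78 to 11.1 times that of *Gata6* in all libraries.

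The antagonist pair *Gata6* and *Nanog* was compared in the same way. The ratio of *Gata6* to *Nanog* was 0.364, 0.465 and 0.279 under oEV-EMT and 1.58, 0.747 and 0.664 under oEV-ctrl. It was lower in every oEV-EMT library, with a log2 difference of -1.35 (exact permutation test, p = 0.1, again set by the lack of overlap). *Gata6* itself overlapped, as given above, while *Nanog* measured 53.1, 46.2 and 56.1 FPKM in oEV-EMT against 13.0, 25.8 and 37.5 in oEV-ctrl. With *Pou5f1*, which encodes OCT4, as the denominator, the ratio was 0.813, 0.899 and 1.02 against 1.97, 2.78 and 1.82. This too did not overlap. As a background, 45% of all tested genes had a lower ratio to *Nanog* in every oEV-EMT library and 0.117% a higher one. For *Pou5f1* the shares were 48% and 0.134%. The ratio of *Gata4* to *Nanog* overlapped between the groups, with a log2 difference of -0.20.

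**Figure D3:**
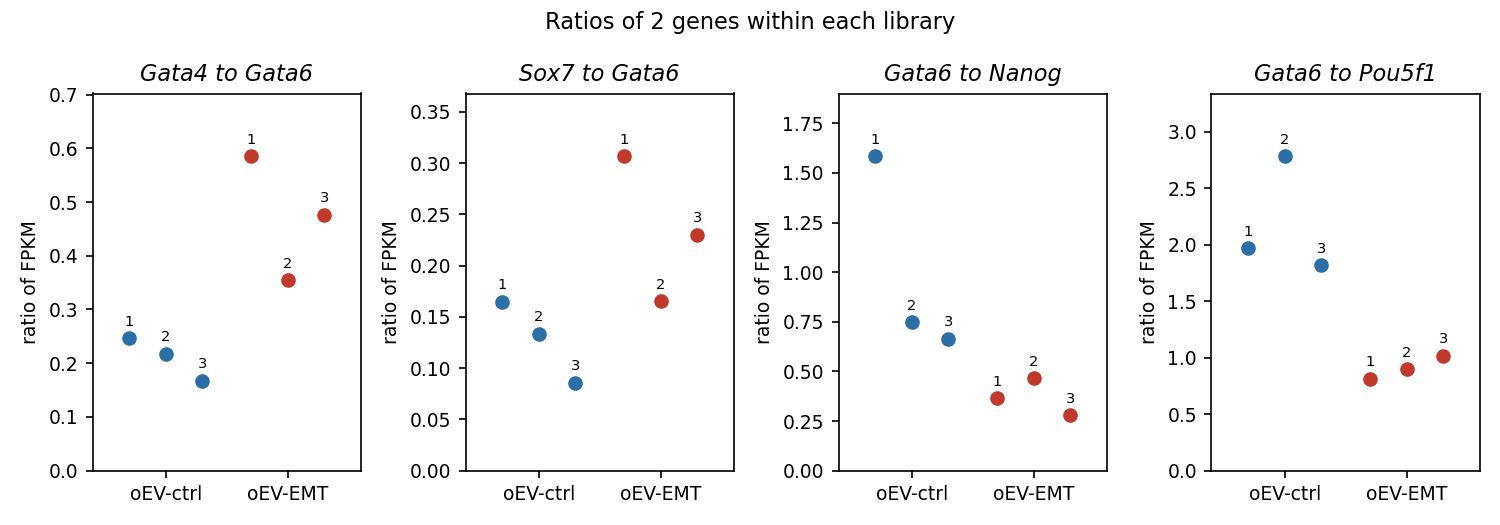
Ratio of the FPKM of 2 genes within each library (y axis, starting at 0), for *Gata4* and *Sox7* over *Gata6* and for *Gata6* over *Nanog* and *Pou5f1*. Points are libraries, numbered by replicate, in blue for oEV-ctrl and red for oEV-EMT. All 4 ratios are without overlap, the first pair higher and the second pair lower in oEV-EMT.

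Across the 6 libraries the 7 tested factors varied alike to very different degrees. Pearson's r of log2(FPKM + 1) was 0.94 between *Gata4* and *Sox7*, 0.82 between *Gata4* and *Sox17* and 0.77 between *Sox17* and *Sox7*. It was also 0.77 between *Pdgfra* and *Dab2*, and *Foxa2* had 0.66 with *Gata6* and 0.65 with *Sox17*. It was 0.59 between *Sox17* and *Pdgfra* and 0.15 between *Gata6* and *Sox17*, whereas *Gata6* had an r of -0.42 with *Gata4* and -0.44 with *Sox7*. These values describe 6 libraries that share the division into groups and the high values of oEV-EMT 1, and they carry no test. The tested genes most like each factor by this measure were *Mlycd* for *Gata6* (0.976), *Cdca2* for *Gata4* (0.993), *Gm16380* for *Sox17* (0.997), *Cwf19l1* for *Sox7* (0.991), *S1pr5* for *Pdgfra* (0.992), *Ndrg4* for *Dab2* (0.989) and *Sf3a3* for *Foxa2* (0.995). Each was picked as the highest among the 11924 tested genes over only 6 libraries, a choice that by itself gives high values.

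Other genes of the lineage were taken from a list of 35, among them basement membrane components and endocytic receptors, of which 26 were tested. By limma 0 were called. Without adjustment 2 were higher and 0 lower in oEV-EMT (p within 0.05), against 12.8% and 2.55% of all tested genes. The median log2 fold change of the 26 was 0.22, with 14 above and 12 below the median of all genes. The groups were apart in 2 of the 26, *Lamc1* and *Gm2a*, with oEV-EMT on top in both, against 18.1% of all tested genes. *Amn*, the endocytic partner of cubilin, measured 10.5, 6.40 and 4.61 FPKM in oEV-EMT and 5.48, 0.959 and 2.95 in oEV-ctrl (log2 fold change 1.08, adjusted p = 0.293, limma). *Gm2a*, a lysosomal activator protein, was at 592 to 658 FPKM in oEV-EMT and 301 to 507 in oEV-ctrl (log2 fold change 0.60). *Lrpap1* and *Apoe*, the other two most abundant genes of the list, had log2 fold changes of -0.07 and 0.45.

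In the FGF and ERK pathway that specifies the lineage, 22 of 28 listed genes were tested and 0 called. Without adjustment 3 were higher and 1 lower, against 12.8% and 2.55% of all tested genes. The median log2 fold change of the 22 was 0.25, against 0.17 over all genes. The ligand *Fgf4* measured 13.8, 7.04 and 4.88 FPKM in oEV-EMT and 3.05, 3.41 and 3.98 in oEV-ctrl, without overlap (log2 fold change 0.99, adjusted p = 0.208, limma). Its receptor *Fgfr2* overlapped between the groups at 29.4 to 55.9 and 34.2 to 42.3 FPKM, with a log2 fold change of 0.01. The adaptor *Grb2* and the kinase *Map2k2* had log2 fold changes of 0.79 and 0.59, the ERK inhibitor *Spred2* had one of -0.72, and that of *Spry2* was 0.07.

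Markers of the neighbouring lineages were read beside the factors. Of 19 epiblast markers, 18 were tested and 0 called. Before adjustment 7 were higher and 1 lower (p within 0.05), against 12.8% and 2.55% of all tested genes. With a replicate block or with array weights 1 of the markers, *Utf1*, was called (adjusted p = 0.0334 and 0.0399, limma). The median log2 fold change of the 18 was 0.46, which lies 0.29 over that of all genes. This distance stayed between 0.15 and 0.39 under every alternative. The 7 were *Utf1*, *Nanog*, *Gdf3*, *Fgf4*, *Pou5f1*, *Bmp4* and *Pecam1*, with log2 fold changes of 1.83, 1.11, 1.10, 0.99, 0.97, 0.68 and 0.53. *Dppa5a* was the lower one, with -0.64, and *Spp1* and *Zfp42* had 0.55 and -0.71. The summed FPKM of the epiblast markers was 10526 to 12781 in oEV-EMT and 15672 to 20592 in oEV-ctrl, nearly all of it *Dppa5a*. Without this gene, a sum added after the values were seen, it was 768 to 881 and 401 to 656, so that the order of the groups turned with 1 gene. Each of the 19 markers was above 0 in every library. Of 22 trophectoderm markers, 21 were tested and 0 called. Before adjustment 3 were higher (*Lgals3*, *Krt19* and *Elf5*) and 3 lower (*Dppa1*, *Tspan8* and *Fabp3*), against 12.8% and 2.55% of all tested genes. The median of the 21 was -0.02, which ran from -0.27 to 0.16 over the alternatives. The sum of the 22 markers was 13987 to 16399 FPKM in oEV-EMT and 17657 to 20837 in oEV-ctrl. Without the 3 lower genes, a sum likewise added after the values were seen, it was 5008 to 7281 and 5526 to 6290, which overlapped. These genes were left out for being lower, so this sum cannot show whether the rest of the list changed. *Cdx2* was at 10.1 to 15.2 FPKM in all libraries. *Krt18*, among the most abundant of the list, had a log2 fold change of -0.02. The part of the neighbouring lineages in the values of *Gata4* and *Sox17* was not tested.

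**Figure D4:**
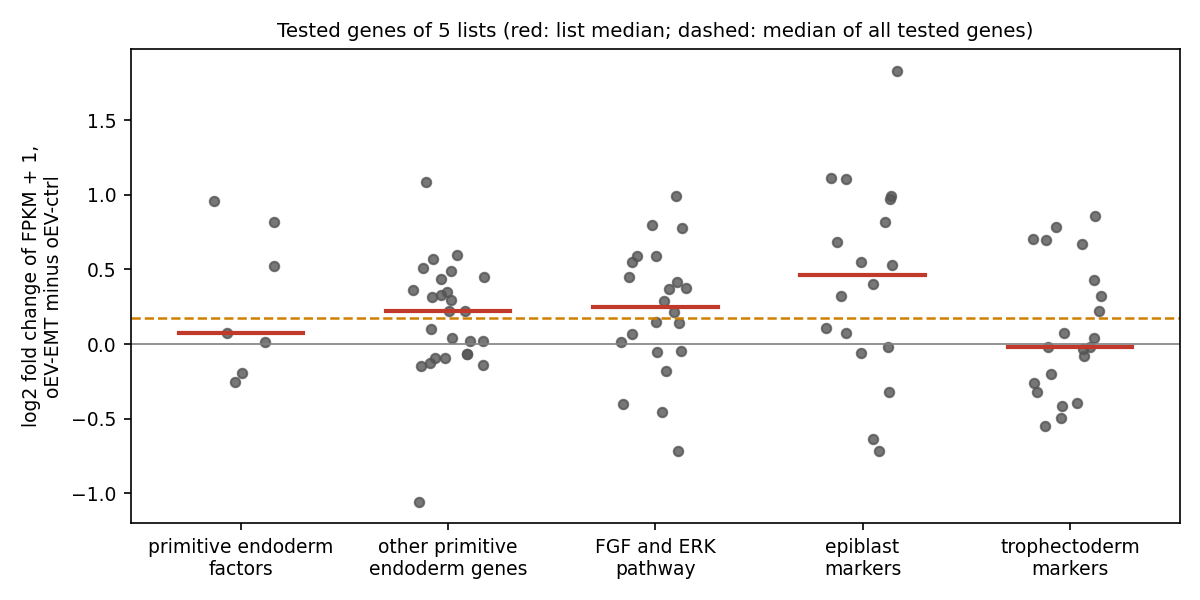
Log2 fold change of the tested genes of 5 lists (y axis, oEV-EMT minus oEV-ctrl, log2 of FPKM + 1). Each point is a gene, red bars are list medians and the dashed line is the median of all tested genes at 0.17. The 7 factors have a median of 0.08 and the 18 epiblast markers one of 0.46.

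Relatives and partners of the factors were mostly low. Of 22 such genes, 9 were tested, 12 stayed below 1 FPKM in every library, and *Gata5*, *Sox18* and *Hnf4g* were listed at 0 in all 6. *Pdgfrb* and *Foxa1* were at 0.159 and 0.158 FPKM at most. The trophectoderm factor *Gata3* was the most abundant GATA gene, at 44.3 to 107 FPKM in oEV-EMT and 68.9 to 86.7 in oEV-ctrl, and overlapped as *Gata6* did. Before adjustment, *Gata1* and *Sox15* were higher in oEV-EMT (p within 0.05) and 0 were lower, against 12.8% and 2.55% of all tested genes. *Gata1* had a log2 fold change of 0.64 and *Sox15* one of 0.82.

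**Figure D5:**
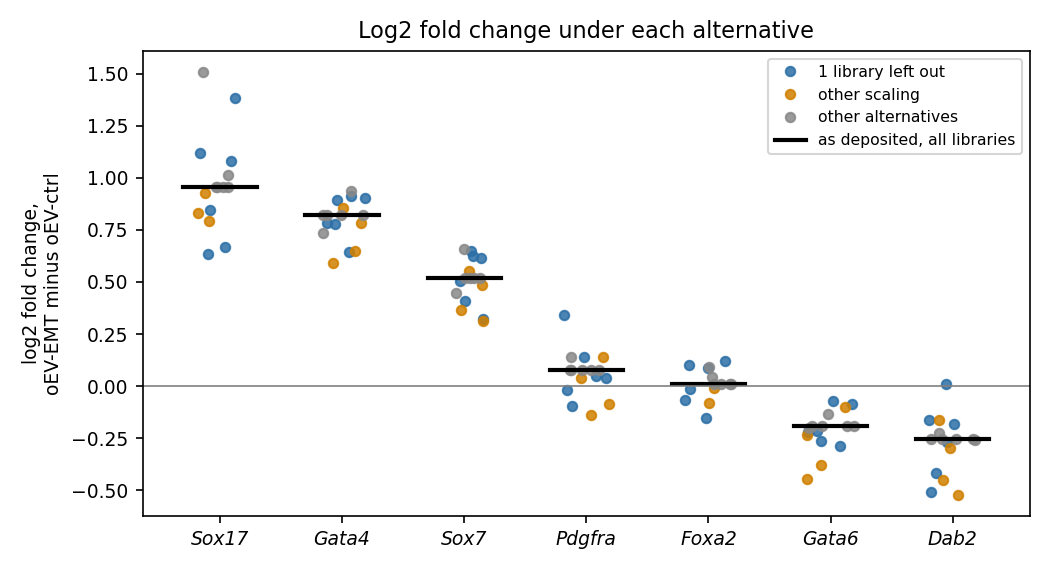
Log2 fold change of each tested factor (y axis) under every alternative, with the value from all libraries as deposited as a black bar. Blue points leave out 1 library, orange points use another scaling and grey points another filter, pseudocount, weight or variance. *Sox17*, *Gata4* and *Sox7* stay above 0 and *Gata6* below 0 throughout, while *Pdgfra*, *Foxa2* and *Dab2* cross 0.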

How the data were processed

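The authors isolated polyadenylated RNA, sequenced it, aligned the reads to the genome and assembled transcripts with StringTie. Per the labels the build was mm10; the aligner is not given in the sources used here. The authors deposited 1 FPKM value per gene and library, which their methods call TPM, although the sums differ between libraries. Of 55487 Ensembl identifiers, 55141 matched GENCODE M21 (GRCm38), the source of names, coordinates and lengths.

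Genes reaching 1 FPKM in 3 or more libraries were fitted as log2(FPKM + 1) with limma 3.58.1 in R 4.3.3 (trended, robust variance, Benjamini-Hochberg adjustment over all 11924 genes). The thresholds were an adjusted p-value of 0.05 and a log2 fold change of 1. Single values were compared by exact permutation (two-sided) in scipy 1.17.1. Alternatives covered scaling, filter, pseudocount, replicate block, array weights, variance and leaving out each library.

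The members and lists were chosen with earlier results of these data known. Named were all 8 factors and, of each list, the 3 genes of highest mean FPKM and those with an unadjusted p-value within 0.05, except for items not reported here. *Cdx2*, *Lamc1* and the relatives and cumulus markers given as silent were named after their values were seen. Depth was read from genes with 1 transcript of over 2500 bases and a product of FPKM and kilobases under 0.3. Promoters came from RefSeq on GRCm38.p6.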

Additional observations from a re-analysis of the deposited data

How the results depend on the processing

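Over 109 values of the 7 tested factors under the alternatives, 99 kept their direction and 10 changed sign, and 0 factors were called under any of them. The other filters, the replicate block and the other variance setting leave the log2 fold change of a factor as it is. Their values kept direction by construction, so the 99 overstate how stable the directions were. The log2 fold change stayed between 0.59 and 0.94 for *Gata4*, between 0.31 and 0.66 for *Sox7*, between 0.63 and 1.51 for *Sox17* and between -0.45 and -0.07 for *Gata6*. *Pdgfra* was at -0.087 after median-of-ratios and at -0.14 after upper quartile scaling, and between -0.10 and 0.34 with each library left out. *Foxa2* was at -0.083 after median-of-ratios scaling and at -0.010 when scaled without the most abundant entry, and between -0.15 and 0.12 with each library left out. *Dab2* ranged from -0.51 to 0.011 over the libraries left out. *Sox17* and *Foxa2* did not pass the filter after scaling to a common total, nor *Foxa2* after upper quartile scaling.

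The median of the factors relative to all genes was 0.13 after upper quartile scaling, and between -0.18 and 0.13 with each library left out. The number of factors without overlap was 1 when scaled without the most abundant entry, and between 2 and 4 with each library left out, 4 without oEV-EMT 3. Of all tested genes 21% were without overlap at the first setting, against 22.4% with all libraries as deposited. With a library left out the share was 28.4% to 39.7%, and 36.8% without oEV-EMT 3. After median-of-ratios and upper quartile scaling 2 factors were without overlap, *Gata4* with oEV-EMT on top and *Gata6* with oEV-EMT below. The shares of all tested genes there, in either direction, were 20.1% and 20%. Among all tested genes, 21 were called with a replicate block and 104 with array weights, and between 0 and 17 with each library left out, 17 without oEV-ctrl 3 and 4 without oEV-EMT 1. Same-numbered libraries did not deviate together (r = 0.119, -0.0442 and 0.0388), so the block pairs by number only. The cause of these changes was not tested. Low levels limit *Hnf4a* and *Foxa2* most.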
